A study of Mus musculus with 6 samples.

Results

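The RNA polymerase III (Pol III) machinery and the proteins that package or use its RNAs were followed in C8D1A cells, a cloned mouse astrocyte line, on 6 one-colour Agilent arrays. The set holds 41 genes of the 22911 genes that could be named on the array: the Pol III subunits, the initiation factors TFIIIA, TFIIIB, TFIIIC and SNAPc, the repressor Maf1, the La protein Ssb, proteins of the 7SK particle, and the protein subunits of RNase P and RNase MRP. Members were taken by name, with earlier results of these data known, and 67 of the 56605 probes measured them. The groups were PRF, 3 arrays of cells given pulsed radiofrequency (radiofrequency current applied in brief pulses), and Control, 3 arrays of untreated cells. Cells of both groups came from this single cloned line, for which the labels name no genetic change, and were grown for 6 days with serum and then kept for 24 h in serum-free medium before use. The sources used here give no pulse settings, no length of the stimulation and no delay before RNA was taken. The design text names 3 independent experiments, and p-values measure the spread between these arrays.

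Pol III makes short structured RNAs, among them the tRNAs, the 5S ribosomal RNA, the U6 and 7SK RNAs, and the RNA parts of RNase P, RNase MRP and the signal recognition particle. TFIIIC (with TFIIIA at 5S genes) or SNAPc marks the promoter, TFIIIB is placed next to the start site, and TFIIIB recruits the polymerase, a step that Maf1 restrains when nutrients or growth signals are short. The new transcripts end in a run of U that La binds. RNase P then trims the front of tRNA precursors, RNase MRP cuts ribosomal RNA precursors, and the 7SK particle holds the elongation kinase P-TEFb inactive.

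A level below is the log2 processed signal of a probe minus the 75th percentile of all probes on that array, and a change is the mean PRF level minus the mean Control level with its 95% confidence interval. A gene passed if its p-value from limma, adjusted by the Benjamini-Hochberg method over all tested probes, was under 0.05. The share of probes well above background ran from 62.1% to 63.9% on the PRF arrays and from 59.5% to 61.2% on the Control arrays (its part in the results was not tested). Of 12 astrocyte markers, 10 were well above background on all 6 arrays, while Slc1a3 and Gja1, a glutamate transporter and a gap junction protein of astrocytes, were not above it on any array. The label was also set against other cell types: 7 of 8 oligodendrocyte lineage markers, 3 of 7 neuron markers, 3 of 7 microglia markers, 1 of 5 endothelial markers and 4 of 6 fibroblast and mural markers were above background throughout. Among the tested markers, 2 of 10 astrocyte, 1 of 3 neuron, 1 of 3 microglia, 1 of 8 oligodendrocyte lineage, 1 of 2 endothelial and 2 of 4 fibroblast and mural markers were higher in PRF, with 1 oligodendrocyte lineage and 1 fibroblast and mural marker lower. The summed linear signal of the tested microglia markers was 13.2 to 17.8 times the 75th percentile in PRF and 8.86 to 9.26 in Control, with Aif1, Cx3cr1, P2ry12 and Ptprc not above background on any array. Most of this sum was Itgam (mean level 3.92 in PRF and 3.07 in Control). The other tested microglia markers, Csf1r and Tmem119, changed by 0.16 and -0.25 and did not pass. The summed astrocyte markers ran from 225.6 to 231.1 in PRF and from 208.5 to 221.8 in Control. Most of that sum was Vim, S100b and Nes (mean Control levels 6.72, 5.89 and 5.51). Gfap, Aqp4, Slc1a2 and Aldh1l1 were far dimmer (mean Control levels -2.76, -4.92, -2.93 and -2.59). The summed oligodendrocyte lineage markers ran from 96.8 to 101.5 in PRF and from 93.6 to 96.0 in Control. For neuron markers the sums were 23.8 to 28.2 in PRF and 22.7 to 25.6 in Control, with Rbfox3, Slc17a7 and Gad1 not above background. Fibroblast and mural sums were 3.46 to 4.06 in PRF and 3.56 to 3.96 in Control, with Lum and Rgs5 not above background. Endothelial sums were 0.160 to 0.171 in PRF and 0.127 to 0.136 in Control, with Cldn5 and Cdh5 not above background. The endothelial marker higher in PRF was Kdr, above background on 3 PRF and 0 Control arrays, so it was tested only through PRF. The other tested one, Pecam1, changed by -0.089, so the endothelial sums were higher in PRF only through Kdr. The part of these marker levels in the results was not tested.

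Most of the Pol III machinery changed little with PRF: of 40 tested members, 33 did not pass, 6 fell and 1 rose. The 6 that fell were the RNase P and MRP proteins Rpp38, Rpp40 and Rpp14, the polymerase subunits Polr3g and Polr3d, and the TFIIIC subunit Gtf3c5. The member that rose was Pop4, another RNase P and MRP protein. The 15% of members that fell compares with 13.5% of the 15069 tested genes, and the 2.5% that rose with 16.3%. In either direction 17.5% of members passed, against 29.8% of all tested genes. All 40 tested members were well above background on all 6 arrays. Of the 14047 genes for which that held, 14.2% fell and 12.5% rose. Rpp25, an RNase P and MRP protein, was not above background on any array and was not tested.

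Changes were small and mostly below 0. The median change of the 40 members was -0.13, against -0.0059 for all tested genes, and 30 members (75%) had a change below 0, against 51.1% of all tested genes. The count below 0 depended on the scale, with 36 of 40 without scaling and 39 of 40 with spike-in scaling. On these scales the median of all tested genes was -0.15 and -0.20, so most genes lay below 0 there as well. A change under 1.5-fold was seen for 39 members (97.5%), against 84.1% of all tested genes. PRF and Control arrays did not overlap for 22 members (55%), 16 of them lower and 6 higher in PRF, and the background for no overlap in either direction was 51.1%. At an unadjusted p under 0.05 with a change of at least 1.5-fold, only Rpp38 was lower (background 3.46%) and 0 members were higher by limma (background 12.1%). At an unadjusted p under 0.05 alone there were 13 members in either direction, beside a background of 41.4%.

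**Figure D1:**
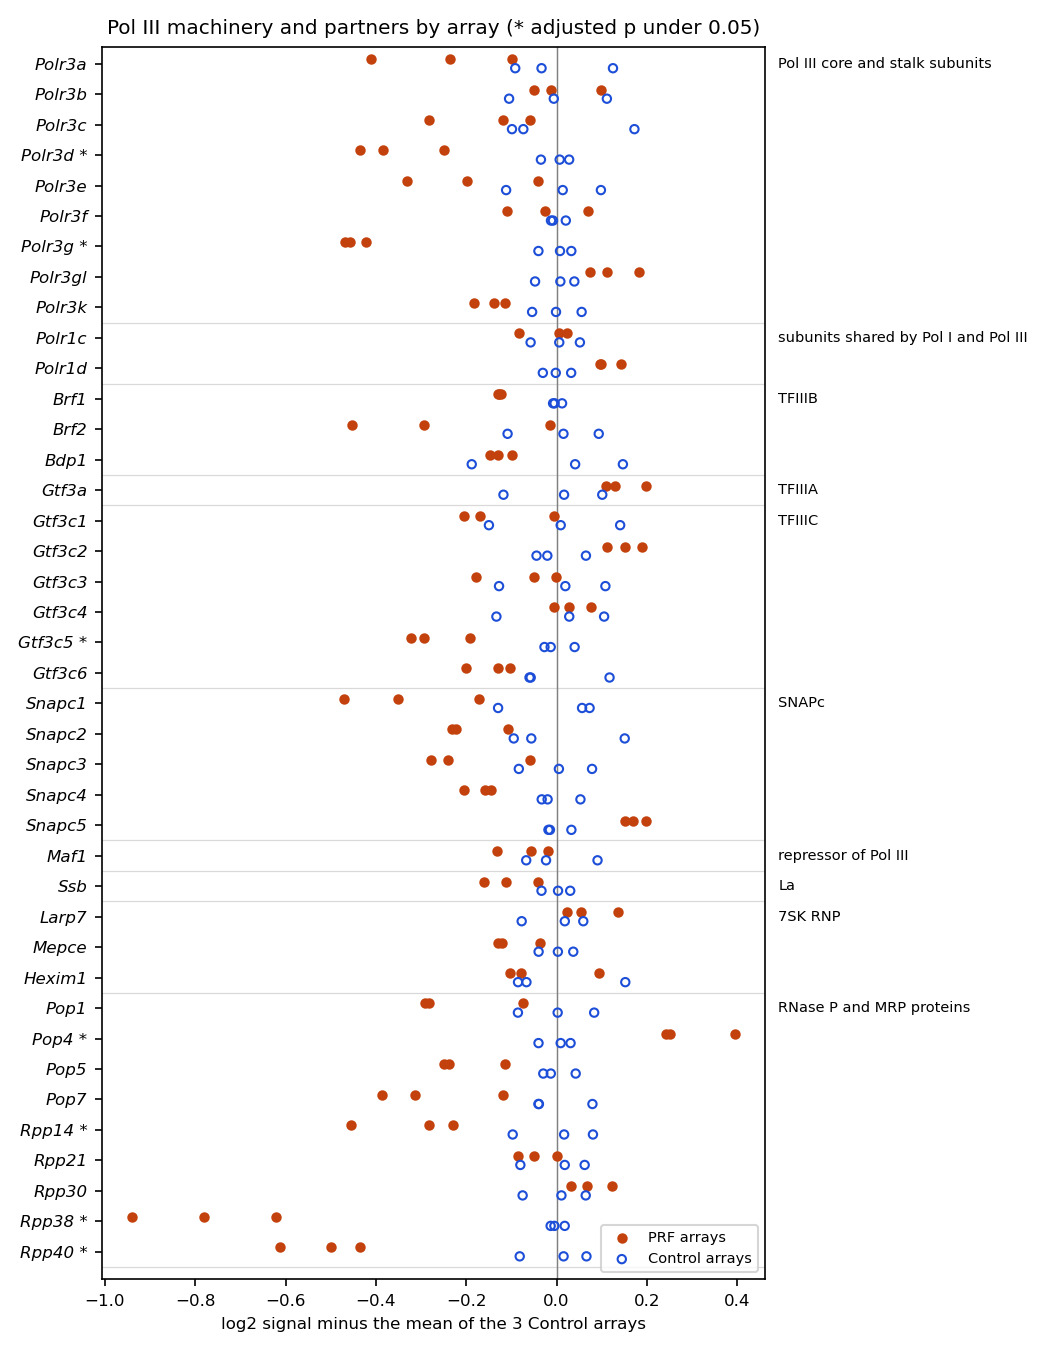
Log2 signal of the 40 tested members on each array, minus the mean of the 3 Control arrays (x axis), with PRF arrays as filled points and Control arrays as open points; an asterisk marks an adjusted p under 0.05. Most PRF points lie within or just below the Control points, Rpp38 lies farthest to the left (mean change -0.78) and Pop4 farthest to the right (mean change 0.30).

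The size of the median depended on the scale of the arrays. With no scaling the median change of all tested genes was -0.15 and that of the members -0.27, with 11 members lower and 0 higher, beside 20.4% of 15069 genes lower. With scaling to 7 spike-in probes the medians were -0.20 and -0.32, with 24 members lower and 0 higher, beside 35.8% of 15069 genes lower. Relative to all tested genes the members' median was -0.12 on each of these scales and with the 75th percentile. These scalings shift all genes of an array by 1 constant, so this value could hardly differ between them. It was -0.072 with quantile normalization and -0.16 with normexp background correction. The same 6 members passed as lower on all of them, and Pop4 did not pass without scaling (change 0.16, adjusted p = 0.329) or with spike-in scaling (change 0.10, adjusted p = 0.337).

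**Figure D2:**
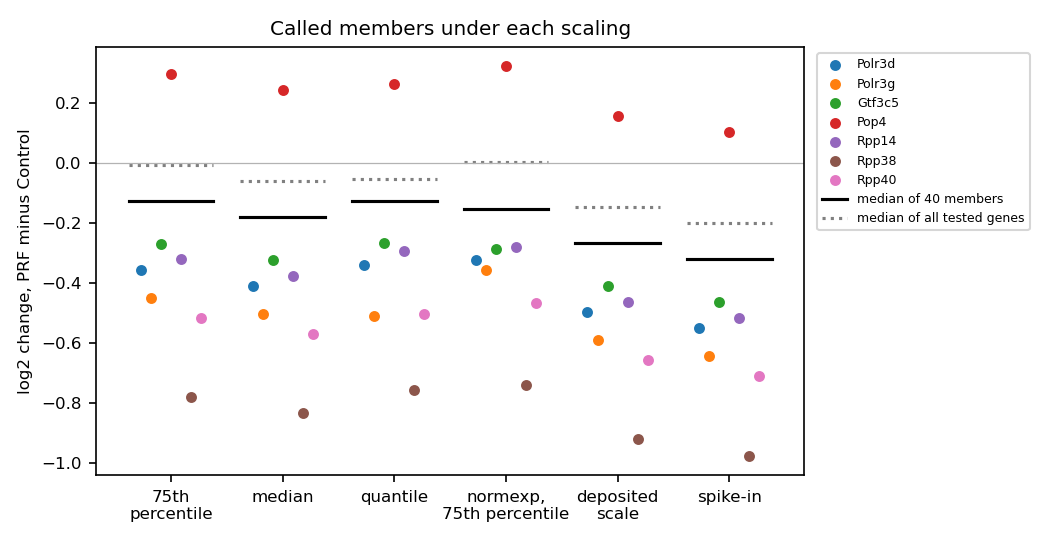
Log2 change, PRF minus Control (y axis), of the 7 members past the threshold under each of 6 scalings, with the median of the 40 members as a solid line and of all tested genes as a dotted line. Points and both lines move down together without scaling and with spike-in scaling, where the lines are at -0.27 and -0.15, and at -0.32 and -0.20.

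Among the 9 tested subunits of the polymerase itself, 2 fell and 7 did not pass, with a median change of -0.15. Of all tested genes 13.5% fell. Polr3g and Polr3gl are alternative subunits for the same place in the enzyme, in a trio with Polr3c and Polr3f that takes part in initiation, and Polr3g is the form known from stem and proliferating cells. Polr3g was at -1.26, -1.22 and -1.27 on the PRF arrays, against -0.84, -0.77 and -0.79 on the Control arrays. The groups were well apart and each was tight. The change was -0.45 (-0.59 to -0.30, adjusted p = 0.00294), or 73.2% of the Control signal. A second Polr3g probe changed by -0.21 and did not pass (adjusted p = 0.0723).

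Polr3gl was at 2.05, 2.16 and 2.09 on the PRF arrays, against 1.93, 1.98 and 2.02 on the Control arrays. All PRF arrays were above all Control arrays, by a small margin. The change of 0.12 (-0.035 to 0.28) did not pass (adjusted p = 0.201), whereas a second, dimmer Polr3gl probe rose by 0.34 (adjusted p = 0.0238). Without scaling and with spike-in scaling the change of the brighter probe was -0.018 and -0.072. The change of Polr3g minus that of Polr3gl was -0.57, and the array values of this difference did not overlap between groups. The 2-sided exact permutation p was 0.1, the smallest that 3 against 3 arrays allow, or 0.15 adjusted over 3 paralogue pairs.

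Polr3d pairs with Polr3e in a module that takes part in initiation and termination. Its levels were 0.26, 0.31 and 0.44 on the PRF arrays, against 0.72, 0.66 and 0.70 on the Control arrays. No PRF array reached the lowest Control array. The change was -0.36 (-0.53 to -0.18, adjusted p = 0.0135), and the second Polr3d probe fell by 0.40 (adjusted p = 0.00535). Without PRF replicate 2 Polr3d did not pass (adjusted p = 0.0526, the highest of 17 alternatives, with 0.00228 the lowest). Here and below, the 17 alternatives leave out the fits within 1 row of the slide, where 1 group has a single array. Its partner Polr3e changed by -0.19 (adjusted p = 0.196).

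Polr3a, the largest subunit and part of the catalytic centre, was at 0.15, 0.32 and 0.46 on the PRF arrays, against 0.47, 0.53 and 0.68 on the Control arrays. The highest PRF array lay just under the lowest Control array. Its change of -0.25 (-0.50 to 0.0042) did not pass (adjusted p = 0.121). Polr3b, the other large subunit of the catalytic centre, had a change of 0.012, and Polr3f, of the initiation trio, one of -0.022. For Polr3k, a small subunit with a part in termination, the change was -0.15 (adjusted p = 0.133). Polr3c had -0.15 on its brightest probe and -0.43 on 1 further probe, which passed (adjusted p = 0.0332), while its remaining probe had -0.026. Polr1c and Polr1d, which form a pair in both Pol I and Pol III, had changes of -0.018 and 0.11 and did not pass.

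Among the initiation factors Gtf3c5 alone passed. In TFIIIB, Brf1 serves tRNA and 5S genes, Brf2 serves genes with an upstream promoter such as those of U6 and 7SK, and Bdp1 joins both forms. Brf1 was at 1.08, 1.07 and 1.07 on the PRF arrays, against 1.19, 1.20 and 1.21 on the Control arrays. These groups were tight and did not overlap, yet the change of -0.13 (-0.26 to 0.011) did not pass (adjusted p = 0.141). The dimmer Brf1 probe passed at -0.22 (adjusted p = 0.0475).

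Brf2 was at -0.57, -0.41 and -0.13 on the PRF arrays, against -0.23, -0.10 and -0.026 on the Control arrays. PRF replicate 3 lay among the Control arrays and the other PRF arrays below them. The change was -0.25 (-0.56 to 0.048, adjusted p = 0.172), and the change of Brf1 minus that of Brf2 was 0.13 (exact permutation p = 0.5). Bdp1 had a change of -0.13 (adjusted p = 0.364), with further probes at 0.0050 and 0.12.

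Gtf3a, or TFIIIA, the zinc finger protein that binds the 5S gene and its RNA, was at 2.66, 2.75 and 2.68 on the PRF arrays, against 2.57, 2.43 and 2.65 on the Control arrays. The lowest PRF array was barely above the highest Control array. Its change of 0.15 (-0.044 to 0.34) did not pass (adjusted p = 0.206) and was -0.049 with spike-in scaling.

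TFIIIC is the large complex that reads the internal promoter boxes of tRNA genes. Its subunit Gtf3c5 was at 2.61, 2.59 and 2.72 on the PRF arrays, against 2.90, 2.88 and 2.95 on the Control arrays. All PRF arrays were below all Control arrays. The change was -0.27 (-0.43 to -0.11, adjusted p = 0.0257), a call that any 1 array except PRF replicate 3 decided. It did not pass without Control replicate 1, 2 or 3 (adjusted p = 0.0682, 0.0671 and 0.0783), nor without PRF replicate 1 or 2 (adjusted p = 0.0728 and 0.0887), nor with no filter on dim probes (adjusted p = 0.0528). The range was 0.00381 to 0.0887 over 17 alternatives. The other TFIIIC subunits did not pass: Gtf3c1, Gtf3c3 and Gtf3c6 had changes of -0.13, -0.076 and -0.14, and Gtf3c2 and Gtf3c4 had 0.15 and 0.033.

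SNAPc binds the upstream element of the U6, 7SK, RNase P RNA and RNase MRP RNA genes. None of its 5 subunits passed by limma, with a median change of -0.19. At an unadjusted p under 0.05 there were 3 of the 5, beside 41.4% of all tested genes. These were Snapc1 at -0.33 (adjusted p = 0.0533), Snapc4, the subunit with Myb-type DNA-binding repeats, at -0.17 (adjusted p = 0.0841), and Snapc5 at 0.17 (adjusted p = 0.0694). PRF and Control arrays did not overlap for 4 of the 5 subunits, these 3 and Snapc2, beside 51.1% of all tested genes. Snapc2 had -0.19, and Snapc3 had -0.19 with a dimmer probe at -0.33 that passed (adjusted p = 0.0175).

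Maf1, the repressor, was at 4.40, 4.47 and 4.51 on the PRF arrays, against 4.50, 4.46 and 4.62 on the Control arrays. The groups overlapped, and the change was -0.069 (-0.24 to 0.11, adjusted p = 0.505). Ssb, which encodes La, was at 4.11, 4.23 and 4.16 on the PRF arrays, against 4.24, 4.27 and 4.30 on the Control arrays. Its groups touched without overlap, with a change of -0.10 (-0.26 to 0.052, adjusted p = 0.264).

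The 3 members of the 7SK particle did not pass by limma, and 0 were at an unadjusted p under 0.05, beside 41.4% of all tested genes. Larp7, which binds the 3′ end of 7SK RNA, was at 3.31, 3.22 and 3.19 on the PRF arrays, against 3.19, 3.23 and 3.09 on the Control arrays. The arrays were interleaved, and the change was 0.071 (-0.098 to 0.24, adjusted p = 0.477), with -0.070 without scaling and -0.12 with spike-in scaling. Mepce, the enzyme that caps 7SK RNA, had a change of -0.095.

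Hexim1, the inhibitor of P-TEFb in the 7SK particle, was at 2.48, 2.28 and 2.31 on the PRF arrays, against 2.32, 2.54 and 2.30 on the Control arrays. The highest value of all was that of Control replicate 2. Its change was -0.029 (-0.26 to 0.20, adjusted p = 0.842), and the sign turned without Control replicate 2 (0.047) or without PRF replicate 2 (0.0075). Its paralogue Hexim2, taken from a list of P-TEFb and 7SK partners, was at 4.59, 4.50 and 4.25 on the PRF arrays, against 3.62, 3.52 and 3.62 on the Control arrays. Hexim2 was thus well above its Control level on every PRF array and rose by 0.86 (0.62 to 1.11, adjusted p = 0.00185). The change of Hexim1 minus that of Hexim2 was -0.89 (exact permutation p = 0.1, the smallest possible, or 0.15 adjusted).

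RNase P and RNase MRP share nearly all their protein subunits. Of 9 tested members 3 fell (33.3%), 1 rose (11.1%) and 5 did not pass, with a median change of -0.22. Of all 15069 tested genes 13.5% fell and 16.3% rose, and 9 genes are too few to tell such shares apart. The other 31 tested members had 3 lower and 0 higher by limma, with a median change of -0.13. At an unadjusted p under 0.05, 5 of these 31 were lower and 1 higher, beside 41.4% of all tested genes in either direction. Rpp38, which binds a kink-turn in the RNase P RNA, was at 0.68, 0.84 and 0.9996 on the PRF arrays, against 1.61, 1.61 and 1.64 on the Control arrays. The Control arrays were nearly equal, and every PRF array was well below them. Its change of -0.78 (-1.004 to -0.56, adjusted p = 0.00187), or 58.2% of the Control signal, was the largest of the 40 members in size.

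Rpp40, which sits with Rpp14, Pop5 and Rpp30 in the human enzyme, was at 0.087, -0.090 and 0.023 on the PRF arrays, against 0.44, 0.54 and 0.59 on the Control arrays. Again no array of either group came near the other group. The change was -0.52 (-0.70 to -0.33, adjusted p = 0.00453), or 69.9% of the Control signal. Rpp38, Rpp40 and Polr3g passed under every scaling and with any 1 array left out. Within row 1 of the slide (PRF replicate 2, Control replicates 1 and 3) and row 2 (PRF replicates 1 and 3, Control replicate 2), where 1 group has a single array and in row 2 none of the 15069 genes passed, the changes were -0.78 and -0.78 for Rpp38, -0.60 and -0.48 for Rpp40, and -0.40 and -0.50 for Polr3g.

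Rpp14, of the same assembly, was at 1.39, 1.56 and 1.61 on the PRF arrays, against 1.74, 1.86 and 1.92 on the Control arrays. The groups did not overlap, though PRF replicate 1 lay apart below the other PRF arrays. The change was -0.32 (-0.54 to -0.11, adjusted p = 0.0362), and the second Rpp14 probe fell by 0.29 (adjusted p = 0.0249). The brighter probe did not pass without Control replicate 2 or 3 (adjusted p = 0.103 and 0.106), nor without PRF replicate 1 or 2 (adjusted p = 0.0900 and 0.0818), nor with no filter on dim probes (adjusted p = 0.0754). The range was 0.00771 to 0.106 over 17 alternatives.

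Pop4, known in human cells as RPP29 and a partner of Rpp21 in the complex, was at 4.02, 4.03 and 4.17 on the PRF arrays, against 3.79, 3.81 and 3.74 on the Control arrays. All PRF arrays were above all Control arrays. It rose by 0.30 (0.13 to 0.47, adjusted p = 0.0227), or 122.8% of the Control signal. The call was lost without Control replicate 1, 2 or 3 (adjusted p = 0.0630, 0.0604 and 0.0714) and without PRF replicate 2 (adjusted p = 0.0552), in a range of 0.00523 to 0.337 over 17 alternatives. With the array row as a block Pop4, Gtf3c5 and Rpp14 did not pass (adjusted p = 0.0560, 0.0543 and 0.0804).

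**Figure D3:**
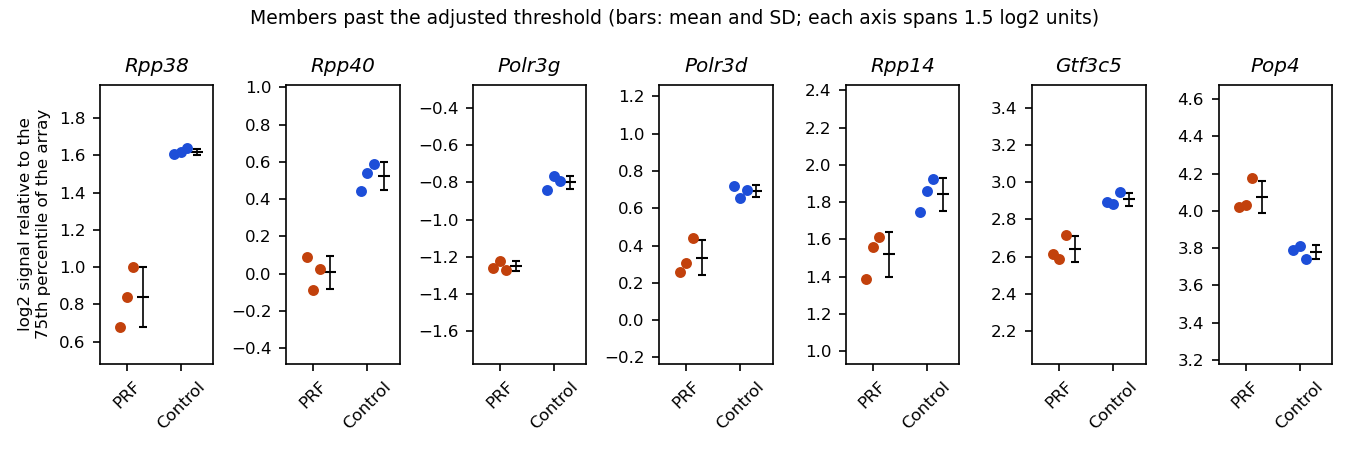
Level on each array (points; log2 signal relative to the 75th percentile) of the 7 members past the adjusted threshold, PRF at the left and Control at the right of each panel, with bars for the mean and SD of 3 arrays. The 6 members at the left have all PRF points below all Control points, with the widest gap in Rpp38 (change -0.78), and Pop4 has them above (change 0.30).

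Of the remaining proteins, Pop1, the largest subunit, had a change of -0.22 (adjusted p = 0.113), and Pop5, which pairs with Rpp30, one of -0.20 (adjusted p = 0.0698). Pop7, which pairs with Rpp25, had -0.27 (adjusted p = 0.0639) on its brighter probe and fell by 0.27 (adjusted p = 0.0423) on its second. Rpp21 and Rpp30 had -0.045 and 0.074. Rpp25 read -8.00, -7.97 and -7.94 on the PRF arrays, against -8.14, -8.05 and -7.94 on the Control arrays, not well above background on any of them.

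Several probes per gene mostly gave the same sign, with shifts in size and in calls. Of 66 tested member probes, 12 were lower and 2 higher. No share over all tested probes is given. By gene, on the brightest probe, 13.5% of all tested genes were lower and 16.3% higher. The 21 members with several probes had 26 further probes, and 23 of these had the sign of the brightest one. Of the further probes 7 passed, 5 of them for members whose brightest probe did not (Polr3c, Polr3gl, Brf1, Snapc3 and Pop7), and only Polr3g passed on its brightest probe and not on the further one.

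**Figure D4:**
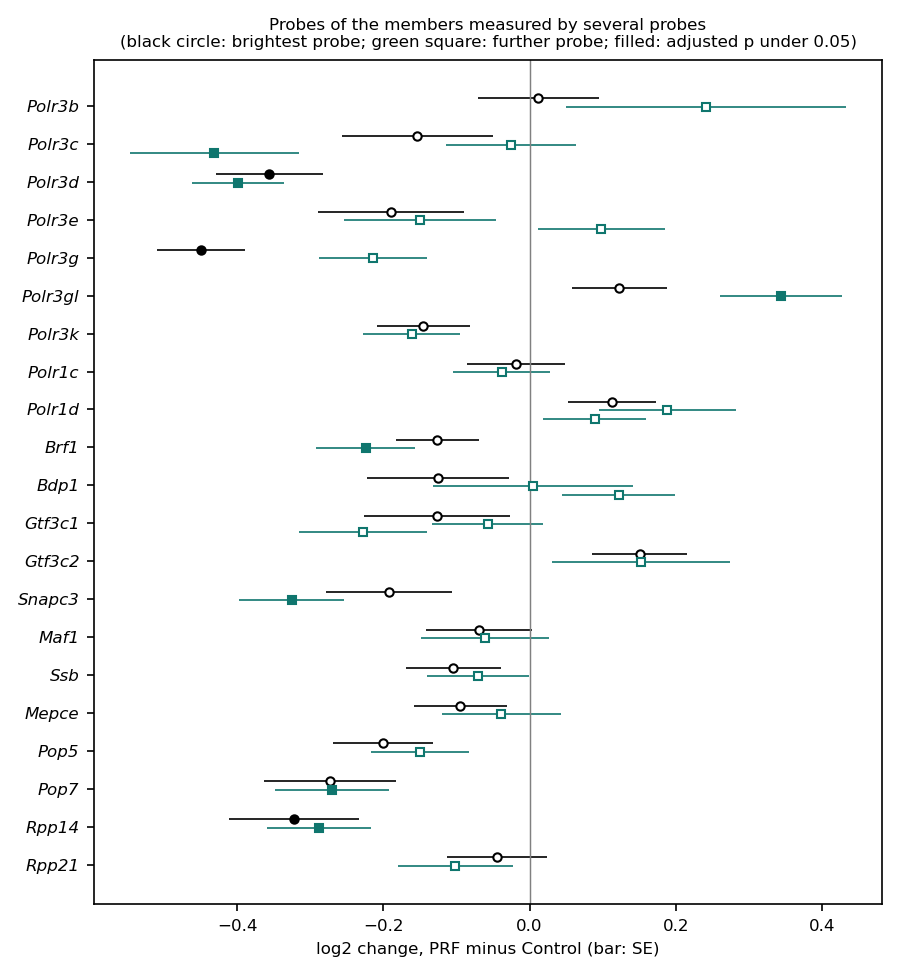
Log2 change, PRF minus Control, with its SE (x axis) for every tested probe of the 21 members with several probes; black circles are the brightest probe of a gene, green squares the further ones, and filled symbols have an adjusted p under 0.05. Both Polr3d probes lie near -0.4 (-0.36 and -0.40), while the Polr3g probes are apart at -0.45 and -0.21.

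Promoter sequences of the members with the largest falls and of Pop4, the only member that rose, are given to show the region where their transcription starts. They are RefSeq sequences of assembly GRCm38.p6, matched for 33 of the 41 members (without Polr3a, Polr3d, Brf1, Brf2, Maf1, Mepce, Pop1 and Rpp21), and run from 250 bases before to 50 bases after the annotated start. Capitals mark matches, on either strand, to CACGTG (the E-box that Myc binds), GAANNTTC (part of the heat shock element), CCGGAAGT (ETS factors), CCAAT (NF-Y) or TGACGTCA (the cAMP response element). The NRF1 motif was searched as well and has no match in any of the 33 windows.
Rpp38, chr2:3332579-3332878, minus strand: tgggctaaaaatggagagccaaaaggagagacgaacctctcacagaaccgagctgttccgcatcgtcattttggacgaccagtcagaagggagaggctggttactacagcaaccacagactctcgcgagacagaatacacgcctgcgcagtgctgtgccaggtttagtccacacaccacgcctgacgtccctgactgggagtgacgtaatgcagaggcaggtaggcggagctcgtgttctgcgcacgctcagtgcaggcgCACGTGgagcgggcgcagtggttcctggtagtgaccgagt
Rpp40, chr13:35906298-35906597, minus strand: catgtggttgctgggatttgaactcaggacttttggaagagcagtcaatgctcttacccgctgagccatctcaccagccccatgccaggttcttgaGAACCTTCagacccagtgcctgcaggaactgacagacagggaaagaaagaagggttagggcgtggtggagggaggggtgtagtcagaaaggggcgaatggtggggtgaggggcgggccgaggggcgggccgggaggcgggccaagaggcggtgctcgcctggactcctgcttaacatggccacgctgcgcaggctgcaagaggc
Polr3g, chr13:81710964-81711263, minus strand: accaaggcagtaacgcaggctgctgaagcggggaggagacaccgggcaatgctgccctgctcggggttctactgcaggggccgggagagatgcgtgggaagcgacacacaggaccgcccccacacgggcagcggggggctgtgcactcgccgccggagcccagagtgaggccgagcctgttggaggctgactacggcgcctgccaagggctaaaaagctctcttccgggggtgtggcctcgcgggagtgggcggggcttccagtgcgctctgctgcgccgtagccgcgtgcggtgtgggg
Pop4, chr7:38271299-38271598, minus strand: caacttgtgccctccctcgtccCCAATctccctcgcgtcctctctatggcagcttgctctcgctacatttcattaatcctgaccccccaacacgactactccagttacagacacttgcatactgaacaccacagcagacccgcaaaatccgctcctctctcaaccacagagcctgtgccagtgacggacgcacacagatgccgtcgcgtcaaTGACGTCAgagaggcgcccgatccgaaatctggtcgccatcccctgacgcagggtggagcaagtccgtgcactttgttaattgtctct

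In the Rpp38 window CACGTG began 11 bases after the start, a motif present in 5 of the 33 member windows (also Gtf3c6, Polr3c, Polr3e and Polr3gl) and in 8.09% of 27025 genes with such windows. In the Rpp40 window GAANNTTC began 154 bases before the start. It was found in 1 of the 33 members and in 9.04% of all genes. The Polr3g window held none of the motifs and was 69.7% G and C.

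The Pop4 window held CCAAT 228 bases and TGACGTCA 38 bases before the start. TGACGTCA was in 5 of 33 member windows (15.2%), those of Bdp1, Gtf3c1, Larp7, Pop4 and Snapc5, against 2.03% of all genes. It was added to the search after the windows had been read, so its count is only a description. The changes of these 5 genes were -0.13, -0.13, 0.071, 0.30 and 0.17. CCGGAAGT was in 4 of 33 member windows against 4.31% of all genes, and CCAAT in 11 of 33 against 41.1%. The falling members Rpp38, Rpp40, Rpp14, Polr3g and Gtf3c5 had neither TGACGTCA nor CCGGAAGT in their windows, which says only that those letters are not there.

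The genes around the members were described by lists that hold no member. Beside the counts of these lists, 13.5% of all tested genes fell and 16.3% rose. The signals of the RNA products of Pol III changed far more than those of its machinery. All 4 with a named probe rose. Rpph1 (the RNase P RNA) rose by 5.96, Rn7sk (7SK RNA) by 4.29, Rmrp (the RNase MRP RNA) by 4.02 and Rn7s1 (signal recognition particle RNA) by 2.88. Their adjusted p-values by limma were 2.9e-05, 2.9e-05, 2.9e-05 and 7.8e-05. Whether these signals follow the amount of RNA that Pol III made was not tested. Rpph1 has near-identical gene copies, so the copy behind its signal is uncertain. The copy behind the signals of Rn7sk, Rmrp and Rn7s1 was not tested either. Rn7s2, listed beside Rn7s1, had no named probe. None of the 5 subunits shared by Pol I, II and III passed by limma (0 at an unadjusted p under 0.05, beside 41.4% of all tested genes).

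Of 12 Pol I subunits and factors, 1 rose and 3 fell, with a median change of -0.21, and 1 of 6 tested Pol II subunits fell. In Pol I the promoter selectivity factors Taf1b and Taf1c fell by 0.63 and 0.57 (adjusted p = 0.00171 and 0.0131), Taf1d rose by 0.61 (adjusted p = 0.00977), and Polr1b, the second-largest subunit, fell by 0.47 (adjusted p = 0.0135). Taf1d did not pass without scaling (adjusted p = 0.0795), nor Polr1b without Control replicate 2 or PRF replicate 2 (0.0510 and 0.0514). In Pol II the subunit Polr2j fell by 0.25 (adjusted p = 0.0367). That call was lost with no filter on dim probes (0.0723), with the array row as a block (0.0788), and without any 1 array other than Control replicate 2 (adjusted p from 0.0794 to 0.112).

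Among 11 regulators of Pol III, 2 fell and 9 did not pass. Myc, a factor that activates Pol III through TFIIIB, was at 2.29, 2.23 and 2.30 on the PRF arrays, against 2.54, 2.76 and 2.59 on the Control arrays. The groups were clearly apart, with a change of -0.36 (-0.55 to -0.17, adjusted p = 0.0164, and 0.0616 without PRF replicate 2). Rptor, part of the mTORC1 complex that controls Maf1, fell by 0.26 (adjusted p = 0.0333). It did not pass with no filter on dim probes (0.0667) or without any 1 array other than Control replicate 1 (adjusted p from 0.0618 to 0.103).

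Of 7 P-TEFb and 7SK partners, Hexim2 and Ccnt1, the cyclin T subunit of P-TEFb, rose, the second by 0.35 (adjusted p = 0.0209). Ccnt1 had smaller values and did not pass on the unscaled arrays (0.21, adjusted p = 0.146) or after spike-in scaling (0.15, adjusted p = 0.210), nor with the array row as a block (adjusted p = 0.0522). Its call also went when PRF replicate 2 or any single Control array was dropped (adjusted p between 0.0573 and 0.0674). Of 13 La-related and RNA-binding partners only Lsm2, of the ring that binds U6 RNA ends, passed, and it fell by 0.29 (adjusted p = 0.0175). The mean of its probes had -0.16 (adjusted p = 0.279), and dropping PRF replicate 1 or 2, or Control replicate 1 or 3, ended the call (adjusted p between 0.0535 and 0.0624).

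Of 18 tRNA processing and export genes, 3 rose, 4 fell and 11 did not pass, with a median change of -0.033. Those that rose included Prorp, the nuclease of the RNase P of mitochondria, which works without RNA. Prorp was at -1.42, -1.79 and -1.94 on the PRF arrays, against -2.87, -2.59 and -2.45 on the Control arrays, and rose by 0.92 (0.52 to 1.32, adjusted p = 0.00879). Its partner Trmt10c, a tRNA methyltransferase, rose by 0.35 (adjusted p = 0.00812), and Clp1, an RNA kinase tied to tRNA splicing, by 0.38 (adjusted p = 0.00879). Neither passed without scaling (0.21 and 0.24, adjusted p = 0.210 and 0.217) or with spike-in scaling (0.15 and 0.18, adjusted p = 0.175 and 0.109).

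**Figure D5:**
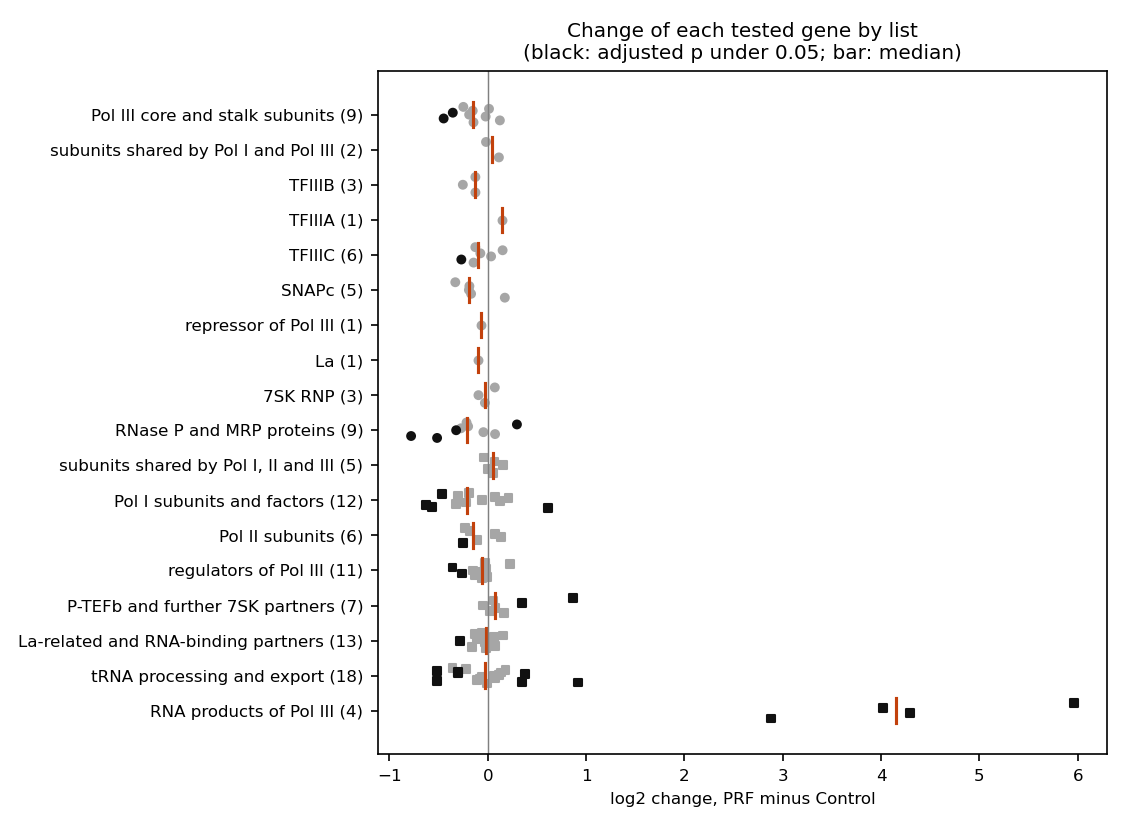
Log2 change, PRF minus Control (x axis), of each tested gene in the member groups (circles) and in the other lists (squares), with the number of tested genes in brackets; black marks an adjusted p under 0.05 and the orange bar the median of the list. Member groups lie between -0.78 and 0.30, and the 4 RNA products of Pol III between 2.88 and 5.96.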

How the data were processed

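Per the file headers, deposited intensity values are the background-corrected processed signal of Agilent Feature Extraction 10.7.3.1, not normalized between arrays. The authors' deposited series table held the same values within a relative tolerance of 0.0001 for at least 99.98% of the probes of each array. Control spots and flagged outlier spots were left out, spots of a probe were averaged, and log2 signals were reduced by each array's 75th percentile. Probes bright enough (above background on every array of either group) were tested with limma 3.58.1 (lmFit and eBayes, R 4.3.3), comparing the groups with no other term, and with Benjamini-Hochberg adjustment over all tested probes (threshold 0.05). Probes were named through RefSeq transcripts of GRCm38.p6 (32994 probes, 23611 without a name). The array design uses an older build, so no probe coordinates are given. The brightest tested probe stood for its gene. The number of arrays limits precision.

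Members and lists were chosen with earlier results of these data known. The rule for named genes takes every member (per-array values for those past the threshold and 9 others), and from each other list up to 4 genes with the smallest adjusted p under 0.05. Some of these genes are not reported here. Paralogue pairs were compared by exact permutation tests (SciPy 1.17.1). Alternatives were other scalings, background correction (normexp, here on the median signal, since the files used here carry no column of mean signal), filters, probe choice, blocks, array rows and left-out arrays. Ranges over 17 alternatives leave out the fits within an array row.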

Additional observations from a re-analysis of the deposited data

How the results depend on the processing

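Counts of members past the threshold (1 higher, 6 lower) and their median change (-0.13) were recomputed under each alternative. Without scaling the counts were 0 and 11 with a median of -0.27, and with spike-in scaling 0 and 24 with -0.32. Of all genes 10.9% were higher and 20.4% lower without scaling, and 11.8% and 35.8% with spike-in scaling. With scaling to the median of tested probes they were 1 and 10 with -0.18, beside 18.4% of all genes lower. With the mean of a gene's probes 2 members were higher, beside 17.2% of all genes. At an unadjusted p under 0.05 with 1.5-fold 0 were higher and 1 lower, beside 12.1% and 3.46%. With the array row as a block 0 were higher, beside 14.1% of all genes. Within row 1 and within row 2, where 1 group has a single array assumed to vary like the others, 0 and 0 passed by limma (4 and 3 members at an unadjusted p under 0.05). Of all genes 7.51% passed in row 1 and 0 in row 2, so these counts say nothing about the members. Leaving out 1 array gave 0 to 1 higher and 3 to 10 lower: 3 without PRF replicate 2, where 6.49% of all genes were lower, and 10 without PRF replicate 3, where 13.2% were. Quantile normalization, normexp, the series table and both other filters kept these counts within 1.5 times.

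Among all 40 tested members the sign turned only for members that did not pass. Without scaling it turned for Polr3b (-0.13), Polr3gl (-0.018), Polr1d (-0.028), Gtf3c4 (-0.11), Larp7 (-0.070) and Rpp30 (-0.067). With spike-in scaling it turned for Polr3b (-0.18), Polr3gl (-0.072), Polr1d (-0.082), Gtf3a (-0.049), Gtf3c2 (-0.044), Gtf3c4 (-0.16), Snapc5 (-0.022), Larp7 (-0.12) and Rpp30 (-0.12). The median of tested probes turned Polr3b (-0.042) and Gtf3c4 (-0.020), normexp Polr3f (0.028), the row block Polr1c (0.0023), and the mean of probes Bdp1 (0.00032). Row 1 turned Polr3b (-0.015) and Gtf3c3 (0.0088), and row 2 Polr1c (0.027) and Rpp21 (0.038). With 1 array left out the changes spanned 0 for Polr3b (-0.040 to 0.068), Polr3f (-0.068 to 0.022), Polr1c (-0.047 to 0.014), Gtf3c4 (-0.033 to 0.086) and Hexim1 (-0.091 to 0.047). The cause was not tested, beyond fewer arrays in the smaller fits. A fit with slide or scan as a block was not run, since all 6 arrays are on 1 slide.

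With the replicate block 0 members were higher and 6 lower, beside 14.7% and 11.0% of all tested genes. In that fit Pop4 (adjusted p = 0.0608), Polr2j (0.0716) and Rptor (0.0655) did not pass. The labels do not say that replicate numbers pair cultures, and same-numbered arrays had correlated deviations of 0.15, -0.084 and 0.046, so the numbers were not taken to pair the arrays.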
